A study of Trichoderma reesei with 6 samples.

Results

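The family 3 β-glucosidase genes of Trichoderma reesei were followed in a strain that lacks the repressor gene cre1. Members were found in the table by protein identifier: 76672 (cel3a), 121735 (cel3b), 82227 (cel3c), 46816 (cel3d) and 76227 (cel3e). All 5 identifiers were found, among 9129 genes in the deposited table. The reference annotation gives a symbol to cel3a, cel3b and cel3c, while the names cel3d and cel3e come from the list of members and the annotation used here has none for them.

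T. reesei is a filamentous fungus used to produce cellulases. Cellobiohydrolases and endoglucanases cut cellulose to cellobiose, and β-glucosidases split cellobiose to glucose, which also relieves the inhibition of cellobiohydrolases by their product. The same enzymes can join sugars by transglycosylation and so form inducers of cellulase genes. CRE1 is a DNA-binding protein of the zinc-finger type that switches such genes off while glucose, a preferred sugar, is at hand.

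RNA was sequenced from mycelium of the Δcre1 mutant grown at 28 °C in Mandels-Andreotti medium with 1% cellulose (3 libraries) or with 2% glucose (3 libraries). The series describes biological replicates, all of a single mutant strain. The labels do not give the culture time of a library, so an effect of the carbon source cannot be told apart from its concentration or from a difference in time. The parent of the mutant is strain QM9414, and its libraries enter here only through the authors' own fold changes. Values are normalised read counts, that is, reads divided by one scaling factor per library. The 6 libraries held between 9009170 and 24655534 reads, and glucose library 1 was the shallowest. After scaling, the summed normalised count was 2.79e+07 in cellulose library 1 and 2.49e+07 in glucose library 1. In the other libraries it was 1.43e+07 to 1.76e+07. Differences in a gene's count between single libraries therefore depend in part on the scaling. The deleted gene still had normalised counts of 2081 to 3394 on cellulose and of 525 to 997 on glucose, and was at 0 in no library. Relative to the parent, the authors' deposited table put its log2 fold change at -1.96 on cellulose and -3.11 on glucose. The extent of the deletion is not stated in the labels. Cellulose library 3 stood apart: its mean correlation across genes with the glucose libraries was 0.850, against 0.788 and 0.797 for cellulose libraries 1 and 2. With the other cellulose libraries its mean correlation was 0.926, against 0.943 and 0.946 for cellulose libraries 1 and 2. It was thus still closer to its own group than to the glucose libraries.

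On cellulose against glucose the members went different ways in the mutant. The genes cel3a, cel3d and cel3e were higher on cellulose, cel3b was lower, and cel3c did not pass the test. Fold changes were tested on log2(normalised count + 1) with limma over all genes with a mean count of at least 10, and a gene was called at a Benjamini-Hochberg adjusted p under 0.05. All 5 members were above this minimum. Of these 5, 3 were called higher and 1 lower, where 18.2% of the 8176 genes tested were called higher and 11.2% lower. In 4 of the 5 members the cellulose and glucose counts were fully apart, with 3 members above and 1 below, where 25.9% of all genes lay above and 22.8% below without overlap. The median log2 fold change was 1.95 over the members and -0.02 over all genes tested. Quantile normalisation changed the division of all calls from 1490 higher and 913 lower to 1279 higher and 1520 lower.

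**Figure D1:**
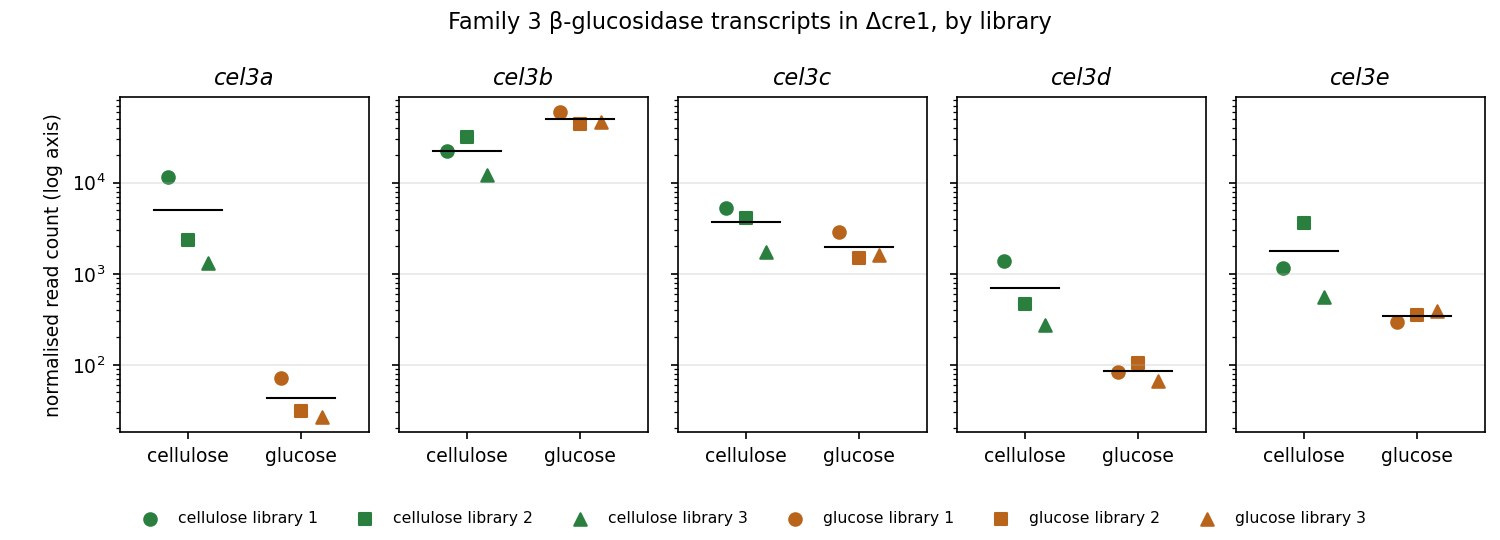
Normalised read counts (log axis) of the 5 members in each Δcre1 library, with cellulose libraries in green and glucose libraries in orange; the bar is the mean of 3 libraries and the marker shape gives the library number. The groups of cel3a lie farthest apart, those of cel3b are reversed, and in each panel cellulose library 3 is the lowest cellulose library.

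The gene cel3a encodes the main secreted β-glucosidase, also known as BGL1. Its normalised counts were 11520, 2375 and 1314 in cellulose libraries 1, 2 and 3, and 71.8, 31.5 and 26.9 in glucose libraries 1, 2 and 3. Every cellulose library was far above every glucose library, and cellulose library 1 was 8.77 times as high as cellulose library 3. Means were 5070 ± 5611 (cellulose) and 43.4 ± 24.7 (glucose; SD, n = 3 each). The log2 fold change was 6.35 (SE 0.77, 95% interval 4.56 to 8.14, limma adjusted p = 0.00125), or 81.7-fold on that scale. The glucose level rests on few reads. There were 26, 52 and 42 reads of cel3a in glucose libraries 1, 2 and 3, with exact Poisson 95% intervals of 17.0 to 38.1, 38.8 to 68.2 and 30.3 to 56.8 that cover counting error only.

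The gene cel3b, which encodes another family 3 β-glucosidase, had 22047, 31857 and 12137 normalised counts in cellulose libraries 1, 2 and 3, and 59091, 44527 and 46306 in glucose libraries 1, 2 and 3. All glucose libraries were above all cellulose libraries, and the glucose libraries lay within 1.33 times of each other. With means of 49975 ± 7945 on glucose and 22014 ± 9860 on cellulose (SD, n = 3 each), its log2 fold change was -1.28 (95% interval -2.15 to -0.41, limma adjusted p = 0.0383), a 2.43-fold fall. The call was lost in edgeR's quasi-likelihood test on the recovered reads (adjusted p = 0.0502), but held in DESeq2 on the same reads (log2 fold change -1.18, DESeq2 adjusted p = 0.00388). Leaving out cellulose library 1 or any one glucose library also lost it, with a log2 fold change at -1.33 (limma adjusted p = 0.0839) in the former case and at -1.15, -1.36 and -1.33 (limma adjusted p = 0.118, 0.0886 and 0.0832) when glucose library 1, 2 or 3 was absent. In these 4 cases the fall was about as large as over all libraries. The smallest fall, -0.90 without cellulose library 3, was still called.

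For cel3c the normalised counts were 5289, 4058 and 1723 in cellulose libraries 1, 2 and 3, and 2870, 1500 and 1605 in glucose libraries 1, 2 and 3. The groups overlapped, because cellulose library 3 was below glucose library 1. The log2 fold change of cel3c was 0.81 (SE 0.44, limma adjusted p = 0.199), and its 95% interval ran from -0.22 to 1.83, which holds 0. The result turned on cellulose library 3: without it the log2 fold change was 1.28 and cel3c was called higher (limma adjusted p = 0.0123).

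The gene cel3d rose on cellulose, with normalised counts of 1367, 470 and 275 in cellulose libraries 1, 2 and 3 against 82.9, 104 and 67.2 in glucose libraries 1, 2 and 3. The groups did not overlap, and cellulose library 1 was 4.98 times as high as cellulose library 3. Its log2 fold change was 2.74 (SE 0.54, 95% interval 1.47 to 4.0, limma adjusted p = 0.00914). In glucose library 1 the gene had 30 reads.

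The gene cel3e had 1151, 3621 and 549 normalised counts in cellulose libraries 1, 2 and 3, and 293, 351 and 387 in glucose libraries 1, 2 and 3. The groups did not overlap, but cellulose library 2 alone was 6.59 times as high as cellulose library 3. Its log2 fold change of 1.95 was close to the threshold (SE 0.60, 95% interval 0.54 to 3.35, limma adjusted p = 0.0459). Leaving out any library except cellulose library 3 lost the call, with limma adjusted p-values of 0.0906 when cellulose library 1 was absent, 0.0521 when cellulose library 2 was absent, and 0.129, 0.114 and 0.0918 when glucose library 1, 2 or 3 was absent. Without cellulose library 2 the log2 fold change fell from 1.95 to 1.22. The call was also lost under quantile normalisation (limma adjusted p = 0.0503) and without an intensity trend (limma adjusted p = 0.0694), and it held in edgeR's test (adjusted p = 0.0293).

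**Figure D2:**
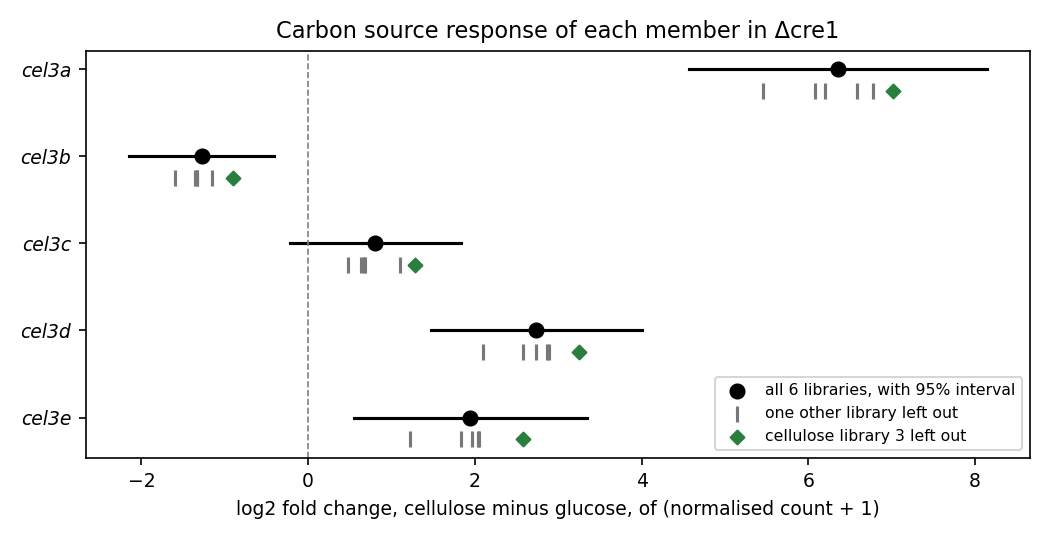
Log2 fold change of each member on cellulose against glucose, with the 95% interval over all 6 libraries (black), the values with one library left out (grey ticks) and the value without cellulose library 3 (green diamond). The value without cellulose library 3 is the highest of the leave-one-out values for each of the 5 members, from -0.90 for cel3b to 7.02 for cel3a.

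Cellulose library 3 was the lowest of the cellulose libraries for all 5 members. The summed normalised count of the family was 41374, 42381 and 15999 in cellulose libraries 1, 2 and 3, and 62408, 46513 and 48393 in glucose libraries 1, 2 and 3. Thus the sum was lower in each cellulose library than in each glucose library. An exact permutation test of the sum gave p = 0.1 (two-sided), the smallest value that 3 against 3 libraries allow. Most of the sum was cel3b, at 53.3% to 75.9% on cellulose and 94.7% to 95.7% on glucose. The lower sum is therefore not separate from the fall of cel3b, while cel3a, cel3d and cel3e were higher on cellulose. Without cellulose library 3 the log2 fold changes were 7.02 for cel3a, -0.90 for cel3b, 3.25 for cel3d and 2.58 for cel3e. The part of this library's likeness to the glucose libraries in these values was not tested. For cel3b, cellulose library 3 was the one farthest from the glucose libraries.

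The make-up of the family shifted between the carbon sources. Shares were taken of the family's summed normalised count in each library. They are not divided by gene length, so they compare one gene between libraries and do not rank the genes. The share of cel3b was 53.3%, 75.2% and 75.9% in cellulose libraries 1, 2 and 3 and 94.7%, 95.7% and 95.7% in glucose libraries 1, 2 and 3. The share of cel3a was 27.8%, 5.60% and 8.22% on cellulose and 0.115%, 0.0677% and 0.0556% on glucose, in the same order. The shares of cel3c averaged 11.0% ± 1.62 with cellulose and 3.71% ± 0.77 with glucose (SD, n = 3 each). The share of cel3d was 3.30%, 1.11% and 1.72% on cellulose and 0.133%, 0.224% and 0.139% on glucose. That of cel3e was 2.78%, 8.54% and 3.43% on cellulose and 0.47%, 0.75% and 0.80% on glucose. The shares of a library add up to the whole, so a lower share of cel3b is matched by higher shares of the other members together, also where a count is steady. The 5 shares are therefore not separate observations, and the higher share of cel3c is no sign of a higher count. Each exact permutation test gave p = 0.1 (two-sided; adjusted over the 5 members, also 0.1), the smallest p possible. Single libraries set the size of some differences in mean share, in percentage points. That of cel3a was 13.8 over all libraries and 6.83 without cellulose library 1. That of cel3d was 1.88 and 1.25 without the same library, and that of cel3e was 4.25 and 2.43 without cellulose library 2.

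**Figure D3:**
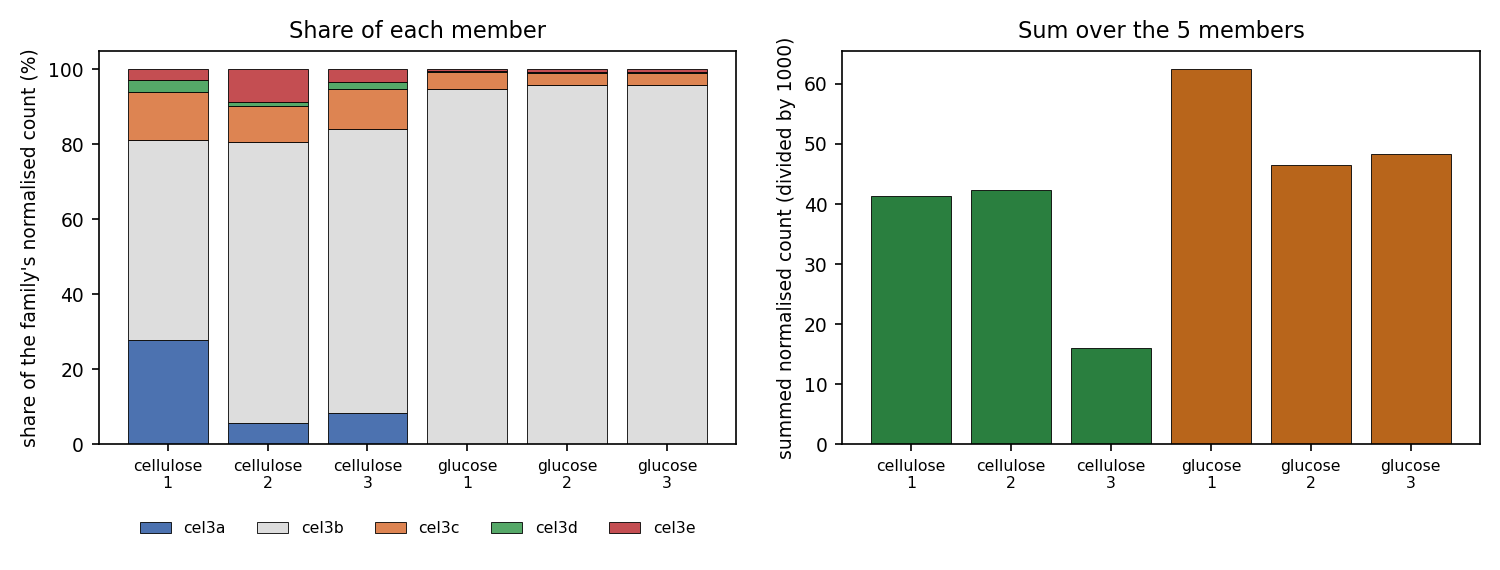
Left, the share of each member in the family's summed normalised count (%) in each of the 6 libraries; right, that sum divided by 1000. The share of cel3b lies between 53.3% and 75.9% in the cellulose libraries and between 94.7% and 95.7% in the glucose libraries, and the sum is lowest in cellulose library 3.

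Whether any 2 members responded differently was tested on the log2 ratio of their counts within each library, which does not depend on the scaling of the libraries. Over the 10 pairs, the ratios of the cellulose and glucose libraries did not overlap for 8, where 50.2% of all pairs of the genes tested did not overlap in either direction. The 10 pairs share 5 genes and are not separate observations. Each of these 8 had an exact permutation p = 0.1 (two-sided), the smallest the design allows, and 0.125 adjusted over the 10 pairs, so no pair could pass the threshold. The widest difference was between cel3a and cel3b. The log2 ratio of cel3a over cel3b was -0.94, -3.74 and -3.21 in cellulose libraries 1, 2 and 3, and -9.66, -10.42 and -10.70 in glucose libraries 1, 2 and 3. Its mean was 7.63 higher on cellulose. The log2 ratio of cel3b over cel3c was 2.62 ± 0.49 with cellulose and 4.70 ± 0.29 with glucose (SD, n = 3 each), a difference of -2.09. The 2 pairs whose ratios overlapped were cel3c with cel3e (difference -1.14, exact permutation p = 0.3) and cel3d with cel3e (difference 0.79, exact permutation p = 0.5). Both differences turned on single libraries. That of cel3d with cel3e was 0.05 without cellulose library 1 and 1.64 without cellulose library 2, and that of cel3c with cel3e was -0.55 without cellulose library 2 and -0.73 without glucose library 1.

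The other genes of cellulose use were taken from lists by identifier, kept where the annotation gave the symbol, which held for 14 of 25. Cellobiohydrolase and endoglucanase genes rose in 4 of 5 cases (median log2 fold change 6.72). The 4 were cel7a at 8.09, cel5a at 8.46, cel12a at 6.72 and cel7b at 4.64. The fifth, the endoglucanase gene cel5b, went the other way without passing the test, at -1.36 (SE 0.66, limma adjusted p = 0.154). Its normalised counts were 601, 916 and 4427 in cellulose libraries 1, 2 and 3, and 3268, 3700 and 3389 in glucose libraries 1, 2 and 3. Cellulose libraries 1 and 2 were below every glucose library, and cellulose library 3 was above them. Without cellulose library 3 cel5b was called lower, at -2.21 (limma adjusted p = 0.000268). All 4 oxidative and accessory genes rose. Among them were cip1, for a protein with a cellulose-binding module, at 8.67 (SE 0.69, limma adjusted p = 0.00029) and cip2, for a glucuronoyl esterase, at 7.64 (SE 0.94, limma adjusted p = 0.00136). Of the family 3 members, only cel3a had a log2 fold change within the range of these 8 genes that rose, 4.64 to 8.67. Summed over the glucose libraries, these genes had from 22 reads (cip2) to 1487 reads (cel7a), against 120 for cel3a. The range thus rests in part on low glucose counts. It was also taken only over genes that rose, and listed genes without a symbol are not in it. With cel5b at -1.36 included, every member would lie within it.

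The normalised counts of cip1 were 28069, 8355 and 4694 in cellulose libraries 1, 2 and 3, and 49.7, 13.9 and 20.5 in glucose libraries 1, 2 and 3. Like cel3a, it was highest in cellulose library 1 and lowest in cellulose library 3 among the cellulose libraries. The other cellobiohydrolase, endoglucanase, oxidative and accessory genes that rose had this order too, as did cel3c and cel3d. It is therefore not particular to cip1 and cel3a, though cel5b, cel3b and cel3e did not have it. Of the 2 family 1 β-glucosidase genes, which encode intracellular enzymes, cel1b was called higher at 1.56, while cel1a at 1.35 was not (limma adjusted p = 0.0513). Of the 3 regulator genes, the remaining cre1 signal rose, at 2.11. The activator gene xyr1 at 0.95 and the repressor gene ace1 at 0.23 did not pass. Over these 4 lists 10 of 14 genes rose and 0 fell, by limma, against 18.2% higher and 11.2% lower over all genes. These 10 include the remaining signal of the deleted gene cre1. The lists were chosen with earlier results of these data known, so the count is a description only. The number lower was also 0 at an unadjusted limma p under 0.05, and 0 in edgeR and DESeq2, but 1 (cel5b) without cellulose library 3. The members of the other family 3 list had no symbol in the annotation and are not named here.

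The nearest expression profiles differed from member to member. Likeness was the root mean square difference between log2(normalised count + 1) values over the 6 libraries, each gene centred on its own mean, among the genes with a name and a mean count of at least 50. It is a description of 6 libraries in 2 groups. The 3 nearest genes of cel3a were cel12a (an endoglucanase) at 0.68, cel61a (a lytic polysaccharide monooxygenase) at 0.78 and cip2 at 0.81, where the median over the compared genes was 3.36. Those of cel3b were gys1 at 0.28, fdh1 (a formate dehydrogenase) at 0.41 and creb at 0.41, with a median of 0.79. For cel3c they were gar1 at 0.22, xyl1 (a xylose reductase) at 0.25 and xyr1 at 0.31, with a median of 0.85. In the glucose libraries together cel12a, cel61a and cip2 had 57, 467 and 22 reads, so the distances of cel3a rest in part on low counts.

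The nearest genes of cel3d were the chitinase genes chi18-5 at 0.61 and chi18-6 at 0.61 and the photolyase gene phr1 at 0.63, with a median of 1.64. Those of cel3e were the light response gene env1 at 0.51, rsr1 at 0.56 and cel1b at 0.59, with a median of 1.35. No member was among the 3 nearest genes of another. The closest members were cel3c and cel3e, at 0.93, and the most distant were cel3a and cel3b, at 3.92.

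**Figure D4:**
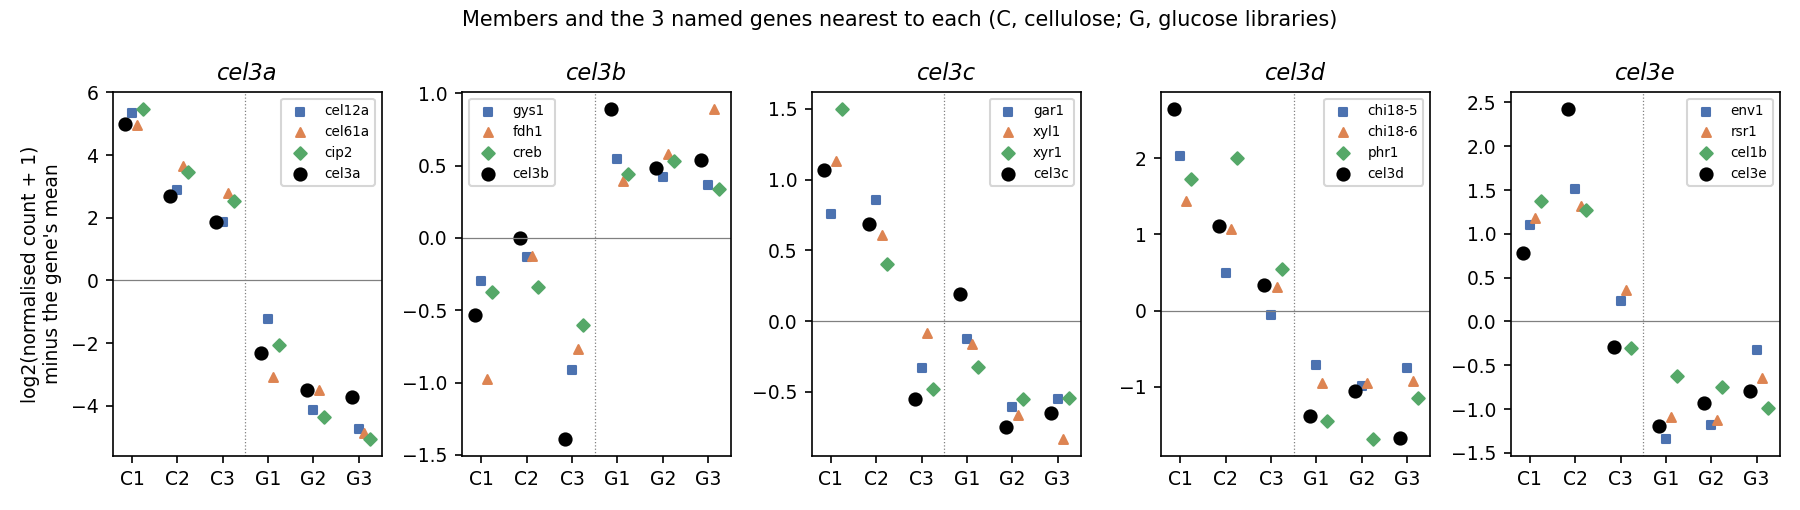
Each panel gives log2(normalised count + 1) minus the gene's mean over the 6 Δcre1 libraries (C1 to C3 cellulose, G1 to G3 glucose) for one member (black) and the 3 named genes nearest to it. Only the panel of cel3b has its higher values on glucose.

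The mutant was compared with its parent QM9414 through the authors' deposited table alone, to see what the loss of the repressor did on each carbon source. The parental libraries were submitted in another series, and a difference between the batches cannot be told apart from the deletion. On glucose 2 of the 5 members were called higher in the mutant and 0 lower in the authors' deposited table at an adjusted p under 0.05, where 4.48% of its genes were called higher and 3.45% lower. On cellulose 0 of 5 were called in either direction in the authors' deposited table, where 6.76% of its genes were called higher and 2.51% lower. The counts at an unadjusted p cannot be given, because the table holds adjusted values.

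In the authors' deposited table the 2 called members were cel3b, at a glucose log2 fold change of 5.12 (deposited adjusted p = 5.87e-37), and cel3c, at 2.84 (deposited adjusted p = 0.00296). The authors' deposited table gave the same genes 0.10 (deposited adjusted p = 0.639) and 0.25 (deposited adjusted p = 0.649) on cellulose. The value on cellulose minus that on glucose was thus -5.01 for cel3b and -2.59 for cel3c. These differences were not tested, since the table gives no errors.

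The other members were not called on either carbon source in the authors' deposited table. The log2 fold changes of cel3a there were 0.60 with cellulose and 0.87 with glucose, at deposited adjusted p-values of 0.894 and 1. For cel3d the authors' deposited table listed 1.19 and 2.33, at deposited adjusted p-values of 0.496 and 1. For cel3e the authors' deposited table listed 0.55 and 0.23, at deposited adjusted p-values of 0.505 and 0.945. The lack of a call does not show that these genes were unchanged. In the mutant cel3a and cel3d had 120 and 307 reads in the 3 glucose libraries together, against 167270 for cel3b.

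**Figure D5:**
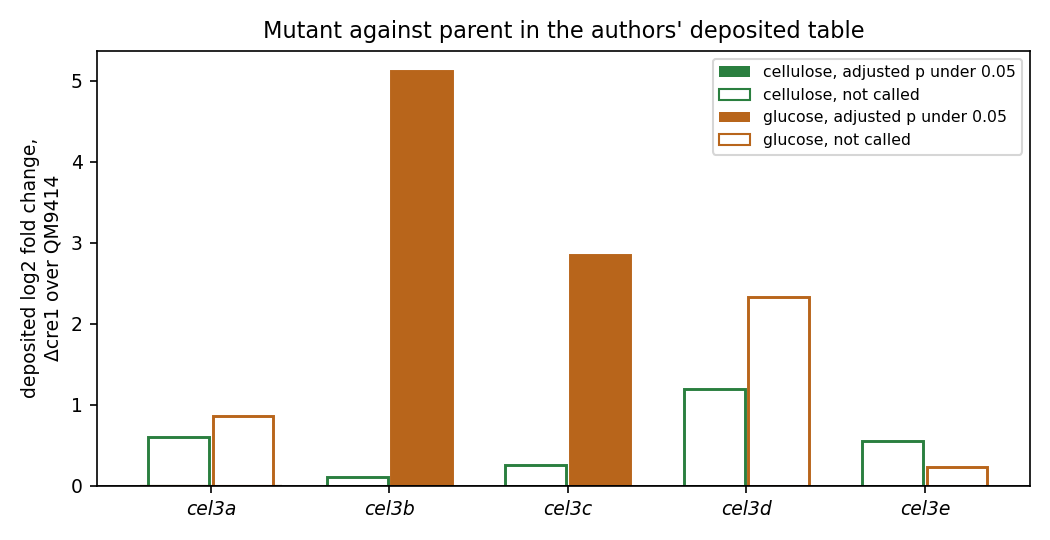
Log2 fold changes of Δcre1 over QM9414 for the 5 members in the authors' deposited table, on cellulose (green) and glucose (orange), with filled bars where the deposited adjusted p was under 0.05. Only the glucose bars of cel3b at 5.12 and cel3c at 2.84 are filled.

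All 10 deposited values of the members were above 0, though only those of cel3b and cel3c on glucose were called. Of all genes of the authors' deposited table, 4390 of 8788 were above 0 on cellulose and 4112 of 8789 on glucose. The members' medians were 0.55 on cellulose and 2.33 on glucose, the uncalled values of cel3e and cel3d. Over all genes of the authors' deposited table the medians were -0.00043 and -0.04. The family 1 genes cel1a and cel1b, at 6.01 and 3.28 on glucose, were called there as well in the authors' deposited table. The authors' deposited table also called cel1a higher on cellulose, at 0.85 (deposited adjusted p = 0.00352), but not cel1b, at 0.35 (deposited adjusted p = 0.349). The gene cel3b was the one member lower on cellulose than on glucose in the mutant, and in the authors' deposited table it was also the member with the largest fold change over the parent on glucose. Both values use the same glucose libraries of the mutant, so they are not separate observations.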

How the data were processed

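RNA of 6 Δcre1 libraries, 3 on cellulose and 3 on glucose, was analysed; titles gave the groups. Libraries were made with the TruSeq RNA kit, per the labels' protocols. Bowtie 0.12.8, SAMtools 0.1.18 and DESeq 1.10.1 are named, without roles, per the submitters' processing notes; not given in the sources used here are the genome build, annotation, read counter and treatment of reads that match several genes. The authors deposited a normalised signal per gene and library. Dividing it by the value of one read, 0.605 to 2.76, gave whole reads for 100% of values within 0.01 read. Log2 fold changes and adjusted p-values of mutant against parent are the authors' own, per the file headers; values of 100 in size there are placeholders, found for 231 genes on cellulose and 205 on glucose, and these and values of 0 were left out of the shares. A further 6 columns of parental values, which carry no labels in the samples given, went into no step.

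Log2(value + 1) was tested with limma 3.58.1 (intensity trend, R 4.3.3), two-sided, with Benjamini-Hochberg adjustment over 8176 genes; 953 with a mean under 10 were left out. The scale understates changes of low genes. Counts recovered from the deposited values went to edgeR 4.0.16 and DESeq2 1.42.0 as alternatives. The limma step was tested on simulated counts with the same spread setting for every gene, which does not bear on calls near the threshold here. Ratios and shares had exact permutation tests (SciPy 1.17.1). Shares had been planned per coding length; no lengths for the authors' build were used, so they are undivided. Names came from RefSeq's annotation of QM6a, assembly v2.0, to which 9072 identifiers matched, 226 with a symbol. Named genes are the members, the listed genes with a symbol, and the 3 nearest profiles per member. Members and lists were chosen with earlier results of these data known. Sequences were not used here. A further gene, beside the 25 listed, was left out of the lists and is not reported here.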

Additional observations from a re-analysis of the deposited data

How the results depend on the processing

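The members' directions held in all 16 alternatives, and cel3a (log2 fold change 5.45 to 7.02) and cel3d (2.09 to 3.25) passed the test in each. Many of these alternatives could not change a direction. Dropping the intensity trend or the filter, a minimum mean of 50 and the replicate block leave the log2 fold change itself the same. Leaving out a library cannot reverse cel3a, cel3b, cel3d or cel3e, whose groups did not overlap. The cel3b value was past the threshold in 10 of 16; it lost the call in edgeR's test (log2 fold change -1.19) and with the replicate block (-1.28, limma adjusted p = 0.0570), and ranged from -1.60 to -0.90 when one library was left out. The cel3e value passed in 8 of 16. It lost the call without an intensity trend (1.95), under quantile normalisation (1.82) and with the replicate block (1.95, limma adjusted p = 0.0509), and ranged from 1.22 to 2.58 with one library left out. The cel3c value ranged from 0.47 to 1.28 and passed only without cellulose library 3. The members called lower numbered 0 in edgeR's test and with the replicate block, and 0 to 1 with one library left out. Scaling to equal totals gave 872 genes higher and 446 lower, quantile normalisation 1520 lower, and leaving out one library 361 to 1369 lower. The median of all genes moved from -0.02 to -0.18 under quantile normalisation and -0.17 with equal totals; relative to it, cel3b was at -1.70 and -1.26. No ratio or share changed sign in 100 alternatives. For the shares and for the 8 ratios that did not overlap between the groups, leaving out a library could not change the sign. Correlations of deviations from the group means were 0.115, -0.142 and -0.0316 between libraries of the same number. Between libraries of unlike number they ran from -0.175 to 0.244. With 3 libraries per group these values cannot decide whether the numbers pair the libraries. The planned share without division by length became the main one, and that alternative was not run. The cause of each lost call was not tested. Low glucose reads limit cel3a and cel3d.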
